A study of Mus musculus with 3 samples.

Results

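Transcripts of 10 genes of extracellular proteolysis were described in mouse macrophages exposed to Lipid A for a second time: the matrix metalloproteinases Mmp8, Mmp9, Mmp12, Mmp13, Mmp14 and Mmp19, the tissue inhibitors Timp1, Timp2 and Timp3, and the sheddase Adam17. The genes were chosen by symbol, and all 10 were found among the 55536 annotated genes. The data are total RNA-seq, with ribosomal RNA depleted, of cytosol from macrophages that were cultured out of C57BL/6J bone marrow, and sex and age were not recorded. All cells received 100 ng/ml Lipid A, the part of lipopolysaccharide that binds TLR4, for 12 h, spent 12 h without it and received 100 ng/ml again for 90 min. The 3 libraries are replicates 1 to 3 of this 1 group and carry 1 donor record, so the spread given here is that between these samples, and no cells without Lipid A, no nuclear fraction and no single exposure were analysed here. Levels are therefore described, and no response to Lipid A can be read from them.

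Matrix metalloproteinases are zinc-dependent proteases that are made as inactive precursors and cut collagen, elastin and other matrix proteins as well as cytokines and receptors. Tissue inhibitors of metalloproteinases block them by filling the active site. ADAM17, a membrane protease of the related ADAM family, releases TNF and other surface proteins from the cell. Macrophages are a known source of several of these enzymes in inflamed tissue.

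Levels are given in TPM, the deposited unit of transcript abundance corrected for length, in which genes can be set beside each other. The libraries held 40637857, 70407572 and 49678390 expected counts over annotated genes in replicates 1, 2 and 3. The 7SL RNA genes took 56.4 to 60.6% of TPM. The factor from TPM to a scale of nuclear protein-coding genes only was 3.02, 3.38 and 3.58 in replicates 1, 2 and 3. A gene at an equal level on that scale in all libraries therefore falls in TPM from replicate 1 to 3. All 8 macrophage markers were detected, with a median of 188 TPM. Of 10 neutrophil markers 2 were detected, of 9 stromal and endothelial markers none, of 7 osteoclast markers 2 and of 6 dendritic cell markers 2. The highest markers of each list were Lyz2 (3262 TPM), Adgre1 (652 TPM) and Cd68 (642 TPM) for macrophages, S100a9 (6.58 TPM), S100a8 (4.12 TPM) and Ngp (0.59 TPM) for neutrophils, and Pecam1 (0.63 TPM), Cdh5 (0.30 TPM) and Pdgfrb (0.0467 TPM) for stroma and endothelium, as means of 3 libraries. They were Acp5 (10.7 TPM), Atp6v0d2 (4.69 TPM) and Ctsk (0.923 TPM) for osteoclasts, and Ccr7 (1.45 TPM), Batf3 (1.23 TPM) and Xcr1 (0.0967 TPM) for dendritic cells.

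A gene was called detected where every library held at least 1 TPM, which 7 of the 10 genes met, against 16.7% of annotated genes and 40.1% of protein-coding genes. The highest was the membrane-bound Mmp14, and the other metalloproteinases lay far below it. Of the inhibitors Timp2 was the only one detected, and Timp1, Timp3 and Mmp9 stayed under 1 TPM in every library. On the protein-coding scale Timp1 stood at 2.96, 1.15 and 2.61 in replicates 1, 2 and 3 and passed 1, so that 8 of the 10 genes did. The share of all genes that pass 1 on this scale was not taken. From the top the order was Mmp14, Timp2, Adam17, Mmp13, Mmp12, Mmp19, Mmp8, Timp1, Mmp9 and Timp3. The ranges of neighbours in this order overlapped for Mmp13 and Mmp12 and for Mmp12 and Mmp19, and Mmp12 was above Mmp19 in only 2 of 3 libraries. No other neighbours overlapped.

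**Figure D1:**
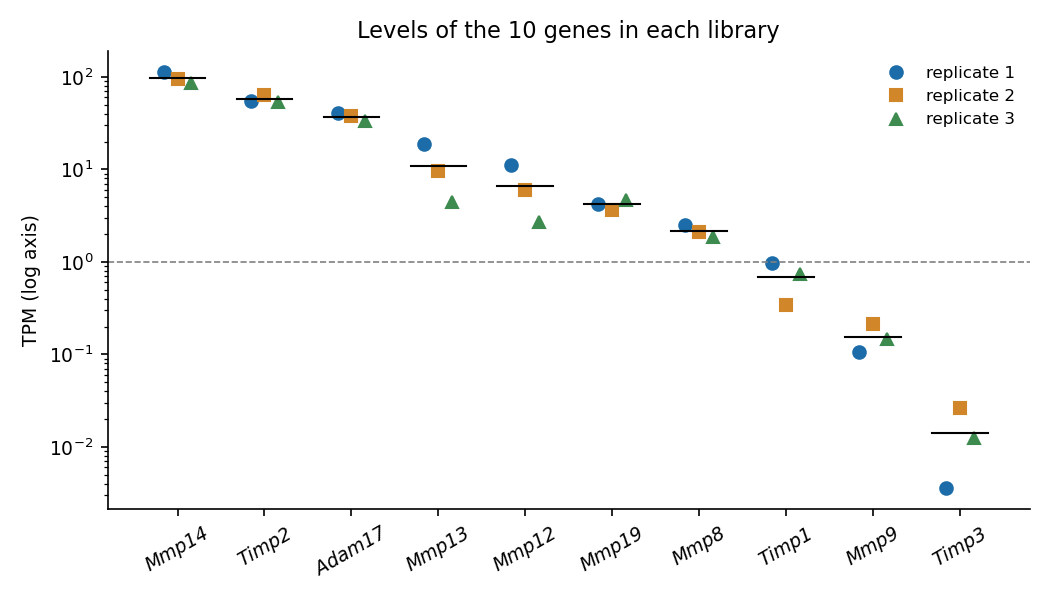
TPM of each gene (log axis) in replicates 1, 2 and 3, with a line at the mean; the dashed line marks 1 TPM. Values were recomputed from expected counts and effective lengths, because the deposited TPM of Timp3 rounds to 0 in replicate 1. Mmp14, Timp2 and Adam17 lie close together between libraries, while Mmp13 and Mmp12 spread over a range of about 4-fold.

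Mmp14 encodes a collagenase anchored in the plasma membrane, which also activates the precursor of the gelatinase MMP2. Mmp14 (ENSMUSG00000000957.11, mm10 chromosome 14, 54431612 to 54445364, plus strand) stood at 114, 95.3 and 84.9 TPM in replicates 1, 2 and 3. On the protein-coding scale it stood at 344, 322 and 304. Its mean was 98.1 ± 14.8 TPM (SD, n = 3), rank 559 of the 9276 detected genes, and it rested on 16570 to 26287 counts a library. It held 75.5, 81.5 and 85.9% of the summed TPM of the 6 Mmp members in replicates 1, 2 and 3. Mmp2 itself, the gelatinase that MMP14 activates, was not detected, with 0.46, 0.66 and 0.83 TPM.

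Mmp13 and Mmp12 were next among the proteases. Mmp13 (ENSMUSG00000050578.10, chromosome 9, 7272514 to 7283331, plus strand) encodes a collagenase, and it stood at 19.0, 9.53 and 4.45 TPM in replicates 1, 2 and 3, a mean of 11.0 ± 7.36 TPM (n = 3). Mmp12 (ENSMUSG00000049723.14, chromosome 9, 7344381 to 7369499, plus strand) encodes macrophage elastase, and it stood at 11.1, 6.05 and 2.71 TPM, a mean of 6.63 ± 4.23 TPM. Both were highest in replicate 1 and lowest in replicate 3, by 4.26-fold for Mmp13 and 4.10-fold for Mmp12 (3.59-fold and 3.46-fold when rescaled over protein-coding genes).

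Mmp19 (ENSMUSG00000025355.7, chromosome 10, 128790910 to 128800824, plus strand), a secreted metalloproteinase, stood at 4.27, 3.66 and 4.71 TPM, and was highest in replicate 3. Mmp8 (ENSMUSG00000005800.3, chromosome 9, 7558456 to 7568485, plus strand), the collagenase known best from neutrophil granules, stood at 2.49, 2.10 and 1.87 TPM from 340, 547 and 363 counts. Of the neutrophil markers, the granule peroxidase gene Mpo, named after its values were seen, stood at 0.09, 0.03 and 0.07 TPM, and Ly6g and Retnlg had 0 counts. S100a9 (7.02, 5.16 and 7.56 TPM) and S100a8 (4.85, 2.52 and 4.99 TPM) were the 2 neutrophil markers detected. The neutrophil marker Ngp stood at 0.55, 0.51 and 0.71 TPM. Camp and Ltf, also named after their values were seen, had counts in every library. S100a9, S100a8, Ngp and Mmp8 were not called variable by edgeR. The part of neutrophil RNA in the level of Mmp8 was not tested.

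Mmp9 (ENSMUSG00000017737.2, chromosome 2, 164940780 to 164955850, plus strand) encodes gelatinase B, which cleaves denatured collagen. It had 14, 31 and 35 counts in replicates 1, 2 and 3, with exact 95% Poisson intervals of 7.65 to 23.5, 21.1 to 44.0 and 24.4 to 48.7 counts, which cover counting error only. The deposited levels were 0.11, 0.22 and 0.15 TPM. Mmp9 was thus present in every library but at 0.16 ± 0.0557 TPM (n = 3).

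Among the inhibitors, Timp2 (ENSMUSG00000017466.9, chromosome 11, 118301069 to 118355740, minus strand) stood at 54.9, 63.4 and 54.1 TPM, a mean of 57.5 ± 5.17 TPM (n = 3) and rank 904 of the detected genes. TIMP2 inhibits MMP14 and also bridges it to the precursor of MMP2. Timp2 held 98.2 to 99.4% of the summed TPM of the 3 inhibitors.

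Timp1 (ENSMUSG00000001131.11, chromosome X, 20870166 to 20874735, plus strand), whose product binds the precursor of MMP9, had 38, 25 and 40 counts and stood at 0.98, 0.34 and 0.73 TPM. It was lowest in replicate 2, the library with the most counts. Timp3 (ENSMUSG00000020044.13, chromosome 10, 86300372 to 86349506, plus strand), the inhibitor that is held in the matrix and blocks ADAM17, had 1, 14 and 5 counts. The exact 95% Poisson intervals were 0.0253 to 5.57, 7.65 to 23.5 and 1.62 to 11.7 counts. Its deposited level was 0, 0.03 and 0.01 TPM, and at this depth the order of the libraries rests on few counts.

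Adam17 (ENSMUSG00000052593.16, chromosome 12, 21323509 to 21373632, minus strand) stood at 40.2, 38.1 and 33.2 TPM, a mean of 37.2 ± 3.60 TPM (n = 3) and rank 1357 of the detected genes. On the protein-coding scale it stood at 121, 129 and 119 in replicates 1, 2 and 3, and so did not fall throughout as its TPM did. Its counts ran from 10406 to 18744 a library. The coefficient of variation of its scaled counts, 5.29%, was the smallest of the 9 members tested.

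Ratios within a library set enzymes beside the inhibitors they are known to bind. With 3 libraries an exact sign-flip test cannot go below a two-sided p of 0.25, so the ratios carry no p. Timp2 was below Mmp14 in 3 of 3 libraries, with a log2 ratio of TPM of -0.76 ± 0.25 (n = 3), and -0.40 in the second transcript table. The summed inhibitors were below the summed Mmp members in 3 of 3 libraries, with a log2 ratio of -1.05 ± 0.33 (-0.69 in the second transcript table). Timp1 was above Mmp9 in 3 of 3 libraries (3.16, 0.63 and 2.28, a mean of 2.02 ± 1.28). That mean was 0.52 with a pseudocount of 1 TPM and 0.44 on counts not corrected for length. On these counts Timp1 was below Mmp9 in replicate 2, with 25 counts against 31.

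Timp2 was above Timp1 by 6.52 ± 0.91 on the log2 scale. Timp2 was above Timp3 by 11.05 and 12.40 in replicates 2 and 3, and the log2 ratio of Timp3 to Adam17 there was -10.31 and -11.70. In replicate 1 these ratios had no finite value, since Timp3 was deposited at 0 TPM from 1 count. Recomputed from counts and effective lengths, Timp3 relative to Adam17 gave -13.46, -10.50 and -11.37 in replicates 1, 2 and 3. Among the proteases, Mmp14 was above Mmp12 by 4.10 ± 0.81, Mmp13 above Mmp8 by 2.12 ± 0.84 and Mmp12 above Mmp9 by 5.21 ± 1.30, each in 3 of 3 libraries.

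**Figure D2:**
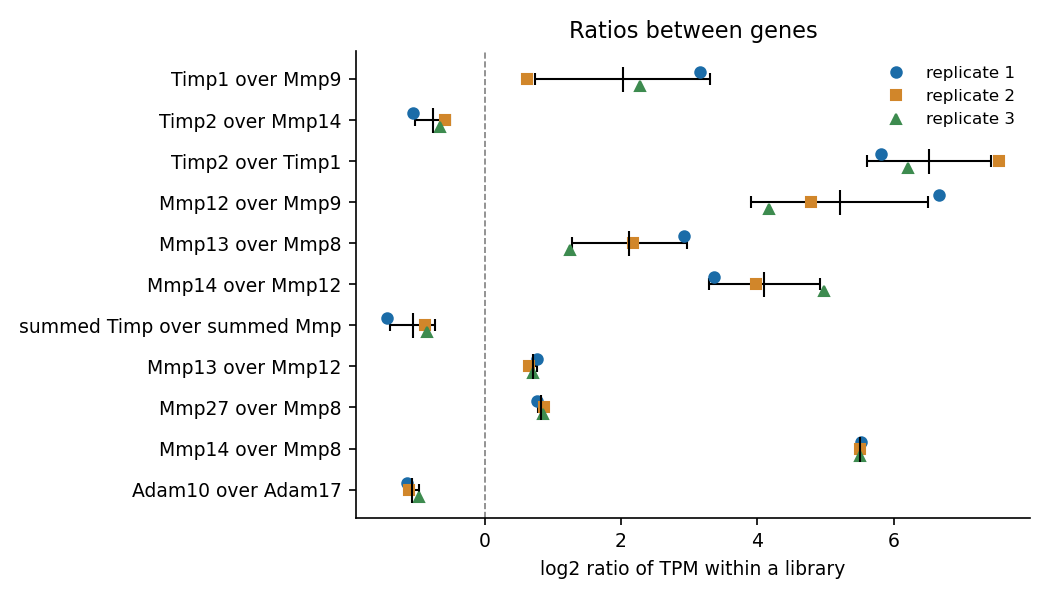
Log2 ratio of TPM within each library for the pairs with a finite value in all 3 libraries; symbols are replicates, and the bar is the mean ± SD. Timp2 over Mmp14 and the summed inhibitors over the summed Mmp members lie below 0 in 3 of 3 libraries, and Mmp13 over Mmp12 spans 0.66 to 0.77 and Mmp14 over Mmp8 5.50 to 5.52.

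Spread between libraries was tested for all genes at once, as the residual deviance of each gene's counts from an edgeR fit under the dispersion of genes of like abundance. Of 12256 genes tested, 240 had an adjusted p under 0.05, which is 1.96%. Of the 9 members that passed the filter on low counts 2 were called, Mmp13 and Mmp12, and Timp3 was not tested. Mmp13 stood at 74.3, 38.2 and 19.0 TMM-scaled CPM in replicates 1, 2 and 3 (coefficient of variation 64.0%, adjusted p = 8.75e-09 by the edgeR deviance test). Mmp12 stood at 25.6, 13.9 and 7.14 TMM-scaled CPM (60.0%, adjusted p = 3.42e-06 by the same edgeR test). The median coefficient of variation of all genes tested was 11.0%.

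Both calls rest on the libraries at the ends of the range. Without replicate 3 the adjusted p of the edgeR test was 0.0584 for Mmp13 and 0.182 for Mmp12, and without replicate 1 it was 0.0104 for Mmp13 and 0.107 for Mmp12. Both genes were called without replicate 2 and in the 4 alternatives that keep all libraries. The other 7 members tested had adjusted p-values of 0.743 for Timp1 and 1.00 for the rest, with coefficients of variation of 5.29 to 46.2%. A p that misses the threshold does not show that their levels were equal.

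Of the 240 genes called, 143 were highest in replicate 1. In 95 (39.6%) the level fell from replicate 1 to 2 to 3, as in these 2 genes. The share of all genes tested that run in this order was not taken, so 39.6% cannot be set against it. The order of the called genes was taken in TMM-scaled CPM. Some cell type markers ran in that order in TPM, a scale that itself falls from replicate 1 to 3 against the protein-coding scale. Among osteoclast markers, Atp6v0d2 stood at 5.77, 5.14 and 3.17 TPM (unadjusted p = 0.0302, adjusted p = 0.532, edgeR) and Ctsk at 1.66, 0.63 and 0.48 TPM (unadjusted p = 0.00234, adjusted p = 0.0954, edgeR), while Acp5 was highest in replicate 3 at 10.2, 9.44 and 12.5 TPM. The macrophage marker Cd68 stood at 735, 641 and 549 TPM, while Adgre1 ran the other way at 539, 652 and 764 TPM. Lyz2 and Csf1r were highest in replicate 2. The endothelial marker Cdh5 stood at 0.44, 0.27 and 0.19 TPM. In TMM-scaled CPM Cdh5 was lowest in replicate 2, at 1.67, 0.855 and 1.25. Pecam1 (0.62, 0.46 and 0.81 TPM) and Pdgfrb (0.03, 0.05 and 0.06 TPM) were highest in replicate 3. The summed levels in replicates 1, 2 and 3 were 17.7, 15.3 and 16.2 TPM for osteoclast markers and 4795, 5456 and 4804 TPM for macrophage markers. They were 12.9, 8.47 and 13.8 TPM for neutrophil markers, 1.18, 0.91 and 1.09 TPM for stromal and endothelial markers and 3.10, 2.67 and 3.09 TPM for dendritic cell markers. Ly6g and Retnlg of the neutrophil list had 0 counts, and the markers named here were chosen after their values were seen. Their part in the spread of Mmp13 and Mmp12 was not tested. The share of counts on features that are not annotated genes, 0.227, 0.110 and 0.0959% in replicates 1, 2 and 3, did run in that order, and its part in the result was not tested. In such bulk samples fewer cells of a type and less RNA per cell cannot be told apart.

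**Figure D3:**
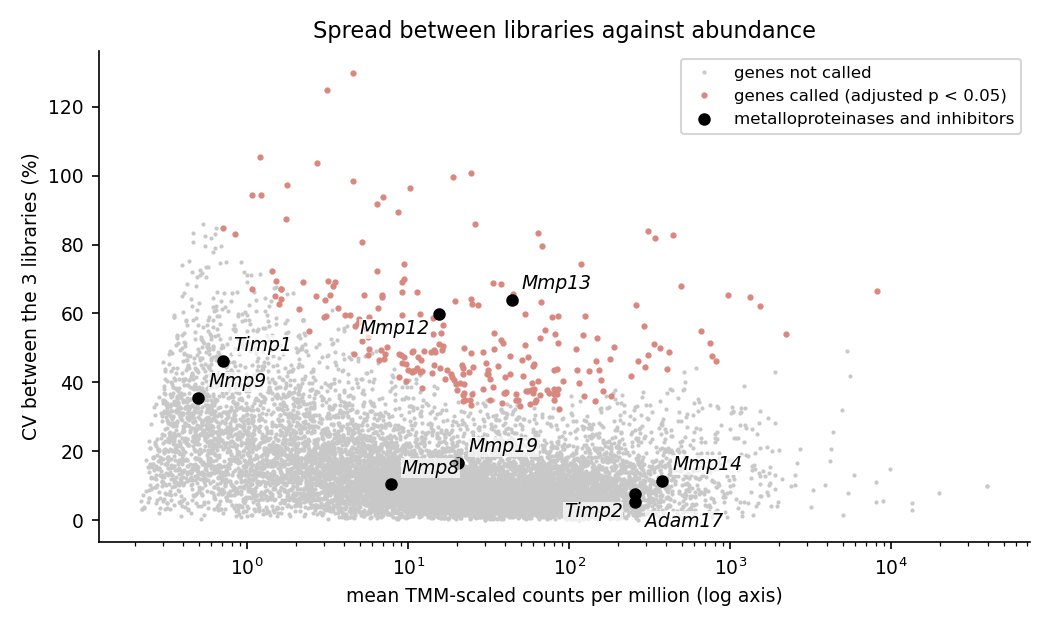
Coefficient of variation between the 3 libraries (%) against mean TMM-scaled CPM (log axis) for the 12256 genes tested; red points are the 240 genes called and black points the 9 members tested. Mmp13 and Mmp12 stand at 64.0 and 60.0%, and Adam17, Timp2, Mmp8 and Mmp14 between 5.29 and 11.5%.

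Mmp13, Mmp12 and Mmp8 lie in 1 cluster of 10 metalloproteinase genes that spans 427 kb of chromosome 9 (7272514 to 7699585). Of these 10 genes 4 were detected, near the share of 40.1% among all protein-coding genes. The 4 form pairs of neighbours: Mmp13 and Mmp12 at one end, and Mmp8 and Mmp27 in the middle. Mmp27, which is not among the 10 genes chosen, stood at 4.24, 3.84 and 3.39 TPM, a mean of 3.82 ± 0.425 TPM (n = 3), and was not called variable (adjusted p = 1.00, edgeR). Between these pairs lie Mmp1b, Mmp3, Mmp1a and Mmp10 with 0 to 2 counts in any library, and beyond Mmp27 lie Mmp20 and Mmp7 with 0.

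Ratios within the pairs were set beside those across them. Mmp13 over Mmp12 gave log2 ratios of 0.77, 0.66 and 0.72 in replicates 1, 2 and 3 (mean 0.71 ± 0.06), beside the 4-fold range of both genes. Mmp27 over Mmp8 gave 0.77, 0.87 and 0.86 (mean 0.83 ± 0.06). Mmp13 over Mmp8, from different pairs, gave 2.93, 2.18 and 1.25. Mmp14 over Mmp8, on different chromosomes, gave 5.52, 5.50 and 5.50 (mean 5.51 ± 0.01), so a steady ratio was not particular to neighbours. These pairs, other than Mmp13 with Mmp8, were chosen after their values were seen, and 3 libraries are too few for a correlation.

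**Figure D4:**
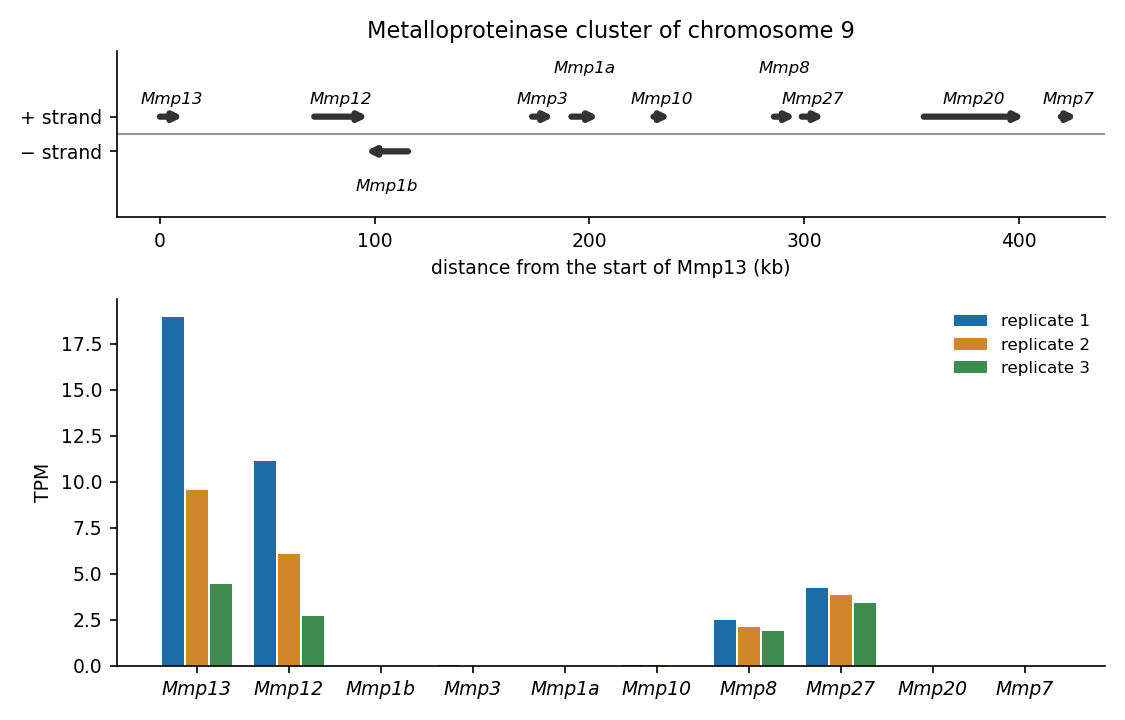
Top, the 10 metalloproteinase genes of the chromosome 9 cluster by distance from the start of Mmp13 (kb), with arrows along their strand. Bottom, TPM of each in replicates 1, 2 and 3, in the same order: Mmp13 and Mmp12 span 4.26-fold and 4.10-fold between libraries, Mmp8 and Mmp27 1.33-fold and 1.25-fold, and the other 6 are at or near 0.

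The promoters of the 3 members of this cluster are shown because 2 of them were called variable between libraries and Mmp8 was not. RefSeq start sites of build GRCm38.p6, which has the coordinates of mm10, were matched for 8 of the 10 members, and Mmp9 and Mmp19 were not matched. Each sequence runs from 250 bases before the start site, plus strand, 5′ to 3′: Mmp13 at chr9:7272264-7272563, Mmp12 at chr9:7344147-7344446 and Mmp8 at chr9:7558179-7558478. Capitals mark matches to TGANTCA, the site of AP-1 factors, to TATAAA, or to the NF-kappaB site, each on either strand.
Mmp13: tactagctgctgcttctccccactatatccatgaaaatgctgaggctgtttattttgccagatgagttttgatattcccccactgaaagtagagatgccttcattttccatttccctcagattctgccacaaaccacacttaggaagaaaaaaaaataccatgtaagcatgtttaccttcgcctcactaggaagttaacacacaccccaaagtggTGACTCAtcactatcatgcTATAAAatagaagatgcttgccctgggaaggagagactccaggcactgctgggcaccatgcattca
Mmp12: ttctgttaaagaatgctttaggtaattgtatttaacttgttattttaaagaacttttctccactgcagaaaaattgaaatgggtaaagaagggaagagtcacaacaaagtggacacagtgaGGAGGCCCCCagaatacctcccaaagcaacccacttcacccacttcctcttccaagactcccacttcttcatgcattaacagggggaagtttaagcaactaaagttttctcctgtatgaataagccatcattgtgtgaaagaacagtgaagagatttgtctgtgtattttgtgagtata
Mmp8: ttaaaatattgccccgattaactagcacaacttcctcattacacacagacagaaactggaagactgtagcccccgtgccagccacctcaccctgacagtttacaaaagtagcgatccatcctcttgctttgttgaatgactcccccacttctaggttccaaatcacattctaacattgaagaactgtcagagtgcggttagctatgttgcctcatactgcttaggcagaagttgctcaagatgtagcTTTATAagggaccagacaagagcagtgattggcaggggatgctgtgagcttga

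With the start base counted as 0, Mmp13 held TGACTCA at -35 to -29 and TATAAA at -16 to -11. Mmp12 held an NF-kappaB match on the minus strand at -129 to -120, and no match to the other 2 motifs. The letters GGAGGCCCCC shown there are its reverse complement, and the NF-kappaB pattern used is not given here. Mmp8 held TTTATA, the reverse complement of TATAAA, at -3 to 2 from the RefSeq start. That start lies before the annotated gene start of Mmp8 at 7558456, so the match lies further upstream of the latter. The RefSeq start of Mmp12 also differs from its annotated gene start. Of 32851 promoters of this length 7.81% held TGANTCA, 13.6% TATAAA and 8.46% the NF-kappaB site, and no matches overlapped in these 3. The windows of Mmp14, Timp1, Timp2, Timp3 and Adam17 held none of the 3 motifs. A match is a sequence and not a measured site, and the lack of one says nothing of the factor.

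G and C made up 38.7 to 46.0% of the windows of Mmp12, Mmp13 and Mmp8, against 55.0 to 70.0% of those of Mmp14, Timp1, Timp2, Timp3 and Adam17. CG dinucleotides numbered 0 in Mmp12, 1 in Mmp13 and 4 in Mmp8, against 10 in Mmp14, 8 in Timp1, 25 in Timp2, 24 in Timp3 and 30 in Adam17. The windows of Timp2 and Timp3 were thus alike in this measure, while Timp2 stood among the highest members and Timp3 at the bottom.

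Transcripts were then compared within genes, in the transcript table made from alignments (first) and the one made from the reads directly (second). Mmp8 and Mmp13 have 1 annotated transcript each. Mmp14 was almost all Mmp14-201 (97.1 ± 0.401% of the gene's TPM, n = 3, first table), the transcript with the longest annotated reading frame of the gene. Adam17 was mostly Adam17-201 (91.6 ± 3.22%). A second transcript of Adam17, chosen after its values were seen, is annotated for nonsense-mediated decay: Adam17-203 took 8.21, 2.60 and 4.89% in replicates 1, 2 and 3 in the first table and 7.77, 2.08 and 5.01% in the second. It carries 19 extra bases at one exon (chromosome 12, 21347431 to 21347449) and an annotated reading frame of 666 bases, against 2481 bases in Adam17-201.

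Mmp12 was split over 3 of its 7 transcripts. Mmp12-204, annotated for nonsense-mediated decay, took 48.2, 39.4 and 54.3% in replicates 1, 2 and 3 of the first table (mean 47.3 ± 7.504%) and 33.0 ± 5.62% in the second (n = 3). It extends 1 exon of Mmp12-201 by 58 bases (chromosome 9, 7348527 to 7348584) and has an annotated reading frame of 192 bases, against 1419 in Mmp12-201. Mmp12-203 took 25.8 ± 7.77% in the first table and 39.9 ± 6.14% in the second. Mmp12-202, which ends in an exon of its own (7369165 to 7369499), took 26.5 ± 4.24% in the first table and 24.8 ± 4.53% in the second. That last exon overlaps exons of Mmp1b on the opposite strand by 157 bases, and Mmp1b had 0 counts in every library.

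Mmp12-201 took only 0.443 ± 0.352% of Mmp12 in the first table. It is the annotated transcript with the longest reading frame of the gene. It differs from Mmp12-203 at the end by 1997 bases of the last exon (7358465 to 7360461). By the mean share Mmp12-204 led in the first table and Mmp12-203 in the second.

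Timp2 was split between 2 transcripts. Timp2-201, of 3709 bases with a reading frame of 660, took 73.0 ± 1.88% in the first table and 50.5 ± 2.55% in the second. Timp2-202, of 718 bases with a reading frame of 430 and a first exon of its own (chromosome 11, 118355554 to 118355740), took 27.0 ± 1.88% and 49.5 ± 2.55%. The difference in these shares between the tables exceeds the spread of the libraries. In counts Timp2-202 was a small part of the gene. In replicates 1, 2 and 3 of the first table it had 447, 1069 and 578, against 8650, 18680 and 12490 for Timp2-201. In the second table it had 1058, 2811 and 1661. Its share of TPM thus rests on the correction for its short length, and so does part of the TPM of Timp2. Mmp19 was mostly Mmp19-201 (76.1 ± 2.92% in the first table, 66.3 ± 4.94% in the second), and the rest was Mmp19-203, which starts at another exon (23.9 ± 2.92% and 33.7 ± 4.94%). The last exon of Mmp19-201 runs 1039 bases past that of Mmp19-203, and 789 of these lie on exons of Tmem198b. The transcripts of Mmp9, Timp1 and Timp3 had few counts: Timp1-201 took 58.6 ± 17.1% and Timp1-202 41.4 ± 17.1% in the first table. Mmp9-201 took 58.8 ± 29.8%, Mmp9-204 27.1 ± 14.9% and Mmp9-202 14.2 ± 24.5%. Timp3-201 took 100% of Timp3 in the first table, whereas in the second Timp3-203 took 25.1 ± 43.4%.

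**Figure D5:**
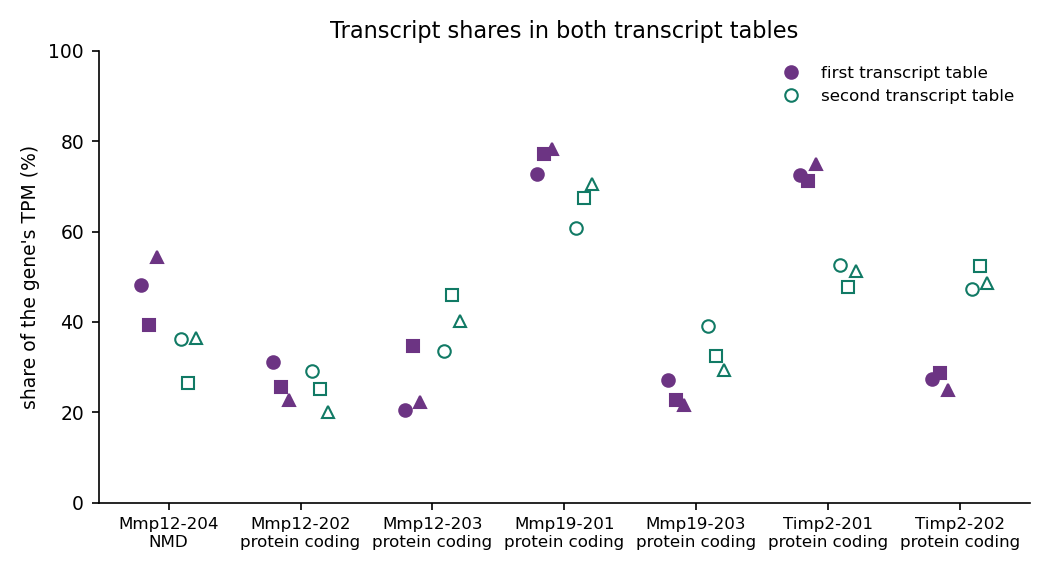
Share of the gene's TPM (%) taken by each transcript of Mmp12, Mmp19 and Timp2 with 10% or more; filled symbols are the first transcript table and open symbols the second, and circles, squares and triangles are replicates 1, 2 and 3. Timp2-202 lies at 25.01 to 28.7% in the first table and at 47.4 to 52.3% in the second.

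Summed by gene, the second transcript table gave a lower TPM for most genes, with a median log2 ratio to the gene table of -0.85 over 9204 detected genes (quartiles -0.89 and -0.75). Mmp14 (-0.81), Adam17 (-0.87) and Mmp13 (-0.89) lay near that median. Timp2 (-0.45 ± 0.13) lay above it, so its level relative to the other members depends on the table. Of genes whose exons overlap a member on the opposite strand, Tmem198b (789 shared bases with Mmp19) stood at 1.69 to 2.09 TPM and Iah1 (311 bases with Adam17) at 9.06 to 11.3 TPM. Timp1 lies within Syn1 (3.35 to 4.39 TPM) on the opposite strand with no shared exon bases, and Timp3 shares 1733 exon bases with Syn3, which had 0 to 2 counts. The sources used here do not give the strand setting of the counting, so these levels are uncertain in the shared stretches.

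The other genes of the pathway were read from lists of relatives and partners. Of 17 other matrix metalloproteinases Mmp27 alone was detected, Mmp2 (0.65 ± 0.185 TPM, n = 3) and Mmp25 (0.593 ± 0.346 TPM) came next, and 6 had 0 counts in every library. None of 4 other inhibitors was detected: the membrane inhibitor Reck stood at 0.04 ± 0.01 TPM (n = 3), and Timp4, A2m and Pzp had 0 counts, which allows up to 0.0161, 0.0209 and 0.0283 TPM (3 counts in the library where they are worth most). Of 8 other ADAM proteases 5 were detected. They were Adam15 (57.3 ± 4.56 TPM), Adam8 (38.2 ± 7.89 TPM), Adam9 (31.8 ± 2.54 TPM), Adam10 (17.7 ± 0.595 TPM), a sheddase related to ADAM17, and Adam19 (1.31 ± 0.0971 TPM). Adam10 was below Adam17 in 3 of 3 libraries, with a log2 ratio of -1.06 ± 0.10, a pair chosen after its values were seen. None of the 6 other ADAM genes and 4 other metalloproteinases tested was called variable by edgeR or with the DESeq2 dispersion trend, and 0 and 1 of them had an unadjusted p under 0.05.

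ADAM17 needs an iRhom partner to leave the endoplasmic reticulum and furin to lose its pro-domain. Of 4 such genes 3 were detected: Furin stood at 28.7, 21.7 and 18.9 TPM, the iRhom gene Rhbdf2 at 28.1, 20.98 and 18.7 TPM and Frmd8, which stabilises iRhom, at 5.93, 5.47 and 4.83 TPM. The other iRhom gene, Rhbdf1, stood at 0.07 ± 0.0265 TPM. Of 15 ADAM17 substrates 9 were detected, and the highest were Tnf (1109, 729 and 607 TPM), the TNF receptor Tnfrsf1b (278 ± 45.4 TPM) and the adhesion molecule Icam1 (179 ± 37.5 TPM).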

How the data were processed

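Total RNA-seq of 3 libraries of 1 group was used. Per the file headers, the authors deposited, for each library, a gene table and a first transcript table with expected counts, TPM, the percent of the gene's TPM per transcript and the posterior SD of each count (a signal in counts), and a second transcript table with estimated counts and TPM, made from the sequence reads per the deposited notes. Not given in the sources used here are these programs and the use of strand in counting. Annotation was M21 on mm10, per the same notes.

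The members and lists were chosen with earlier results of these data known. The named genes are the 10 members, the 3 genes of highest mean TPM in each list, every detected relative of the metalloproteinases and inhibitors, and genes that overlap a member or lie in its cluster. Others are marked as chosen after their values were seen, as are genes called variable within a list. Some genes of these lists are not reported here. Detection meant 1 TPM in all 3 libraries. Transcripts were described at 10% of the gene's TPM. Spread was tested on expected counts rounded to whole numbers: edgeR 4.0.16 in R 4.3.3, filterByExpr, TMM scaling, trended dispersion, residual deviance against a chi-square distribution, Benjamini-Hochberg adjustment over 12256 genes, called under 0.05. DESeq2 1.42.0 size factors and dispersion trend were alternatives. Tested on simulated counts of 12256 genes with 200 raised in 1 library, the test recovered 92% at 4-fold and 100% at 8-fold. These counts were drawn at the trended dispersion that the test assumes. Recovery for genes that scatter about the trend, or that change in steps over the libraries, was not tested. Poisson intervals are exact at 95% and cover counting error only, as do limits from 3 counts. Features that are not annotated genes held 0.0959 to 0.227% of counts and were left out. Promoters are RefSeq windows of 250 bases before and 50 after the start.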

Additional observations from a re-analysis of the deposited data

How the results depend on the processing

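No paired analysis was possible because all 3 libraries belong to 1 group. No mean log2 ratio changed sign. In replicate 2 Timp1 over Mmp9 did so on counts not corrected for length, with 25 counts against 31. The order of Mmp12-204 and Mmp12-203 turned from 47.3 and 25.8% in the first table to 33.0 and 39.9% in the second. Of the values that answer a comparison, 51 alternatives stayed within set limits and 13 moved. The limit was the SD between libraries for a log2 ratio and a fixed fold of the main value for a count. Thus 9 or 8 members detected, against 7, did not count as moved. With a pseudocount of 1 TPM the log2 ratio was 0.52 for Timp1 over Mmp9, 5.13 for Timp2 over Timp1 and 2.56 for Mmp12 over Mmp9. On counts not corrected for length it was 0.44 for Timp1 over Mmp9 and 8.63 for Timp2 over Timp1. In the second transcript table it was -0.40 for Timp2 over Mmp14 and -0.69 for summed inhibitors over summed Mmp members. At 5 TPM 3 members were detected, at 0.1 TPM 9 and on the protein-coding scale 8, with Timp1 added. The share of all genes was not taken at these settings, so these counts cannot be set against it. Leaving out 1 library, 82 to 119 genes were called variable, and 0 to 2 members; with 1 library fewer the test has fewer samples. Over 7 alternatives the adjusted p (edgeR) ran from 2.64e-06 to 0.182 for Mmp12, called in 5, and from 8.13e-09 to 0.0584 for Mmp13, called in 6. The shares of Mmp12-203, Mmp12-204, Mmp19-201, Mmp19-203, Timp2-201 and Timp2-202 moved in the second table; the cause was not tested. Ratios with Timp3 had no finite main value. With a pseudocount of 1 TPM Timp3 over Adam17 was -5.23 and Timp2 over Timp3 5.85, while TPM recomputed from counts, an alternative added after seeing the data, gave -11.78 and 12.41. Depth limits Timp1, Timp3 and Mmp9, which had 1 to 40 counts.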

Other observations

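Of 8 genes of plasminogen activation and of protease uptake and induction, 6 were detected, led by the uptake receptor Lrp1 (76.7 ± 8.98 TPM, SD, n = 3), Bsg (73.0 ± 4.02 TPM) and the hyaluronan receptor Cd44 (58.0 ± 13.6 TPM). Named after their values were seen, Serpinb2, which encodes a plasminogen activator inhibitor, stood at 2.42, 2.26 and 0.53 TPM in replicates 1, 2 and 3 (adjusted p = 0.000425, edgeR), and the urokinase receptor gene Plaur at 6.69, 11.3 and 4.73 TPM (adjusted p = 0.0104, edgeR). Serpinb2 and Plaur were both lowest in replicate 3.

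Of 10 matrix substrates 2 were detected: Spp1, which encodes osteopontin, at 761, 653 and 362 TPM and the laminin gene Lamc1 at 2.72 ± 0.257 TPM, with the syndecan gene Sdc1 next at 0.767 ± 0.165 TPM. None of 12 ADAMTS proteases was detected, and the highest was Adamts10 at 0.68 ± 0.0557 TPM, before Adamts6 (0.183 ± 0.0404 TPM) and Adamts1 (0.167 ± 0.106 TPM). Of the 5 matrix substrates and 4 ADAMTS genes tested none was called variable by edgeR or with the DESeq2 dispersion trend, and 2 of each had an unadjusted p under 0.05.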
